A study of Mus musculus with 120 samples.

Results

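The genes described here are 38 genes of ribosome biogenesis, given by symbol and matched to 38 Ensembl identifiers of the 46078 in the deposited files. They were listed for their function in making ribosomes, with earlier results of these data known. Each of the 38 had a read in at least 1 cell, and 26 averaged 50 CPM or more across the 12 groups, where CPM is a gene's reads per 1000000 gene reads in the summed counts of a group. The cells were 120 single group 2 innate lymphoid cells (ILC2) of the mouse, 1 library per cell, taken from the lineage-negative fraction positive for c-Kit and Sca-1 of mesentery pooled from 20 wildtype C57BL/6 mice and, per the study's methods, kept in culture with IL-2 for months. The labels give fat tissues as the source. Cells were recovered 1 by 1 under live imaging of the secretion of an index cytokine, IL-13 or IL-5. For each index the groups were 5 pre-stimulation cells without added stimulus and, after addition of IL-2 and IL-33, 11 transition cells each at 30, 60 and 90 min after the onset of secretion, 11 activated cells with detected secretion and 11 silent cells without it. Activated and silent cells were recovered together, late in the stimulation, so for them the time since onset was not fixed. The methods describe 1 pool of mice and do not say whether the cells of both indexes came from the same isolation. Neither animal nor culture is given for single cells. A group was therefore treated as 1 sample and no test was made. The 95% intervals cover the counting error of reads only and leave out the spread between cells. Reads carry no molecular identifiers, so copies of 1 molecule count as separate reads and the intervals are too narrow for molecules.

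Ribosome biogenesis starts in the nucleolus, where RNA polymerase I transcribes the large precursor of the ribosomal RNAs. Small nucleolar ribonucleoproteins (snoRNPs) guide the chemical modification of this precursor, and large sets of assembly factors fold it, cut it and join it to ribosomal proteins to form the small and the large subunit. The process uses much of the energy of a growing cell and is low in resting lymphocytes. Many of its genes are known targets of the transcription factor Myc, which binds the E-box.

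The members were grouped by role. RNA polymerase I was represented by Polr1a and Polr1b, its 2 largest subunits, and by Mybbp1a, a nucleolar protein that takes part in ribosomal RNA transcription and processing. Abundant nucleolar proteins were nucleolin (Ncl), nucleophosmin (Npm1), its relative Npm3 and the RNA helicase Ddx21. The snoRNP proteins were the box C/D proteins Fbl, Nop56, Nop58 and Rrp9, the box H/ACA proteins Dkc1, Gar1, Nhp2 and Nop10, and Nolc1, a chaperone of snoRNPs. Small subunit assembly was represented by 10 genes (Nop14, Noc4l, Utp20, Wdr43, Bysl, Emg1, Dimt1, Ltv1, Nob1 and Rrp12) and large subunit assembly by 12 (Bop1, Pes1, Wdr12, Nop2, Nop16, Wdr74, Rrp1b, Rrs1, Noc2l, Noc3l, Gnl3 and Ppan).

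Promoter sequences are shown for the members with an E-box, the Myc site named above. RefSeq windows (GRCm38.p6) from 250 bases before to 50 bases after a transcription start were given for 33 of the 38 members. The palindrome CACGTG, the same on both strands, lay in a window of 6 of these 33 members (18.2%), against 8.09% of all 27025 genes with a window and 13.8% of the 2106 of them at 50 CPM or more. The ETS-type motif CCGGAAG, on either strand, lay in a window of 10 of the 33 (30.3%), against 9.93% and 26.6%. The motifs were counted separately, and a window may hold both. The 6 E-boxes are given 5′ to 3′ on the strand of the gene with up to 12 bases on either side, the E-box in capitals.
Nop2, chr6:125131811-125131840, plus strand: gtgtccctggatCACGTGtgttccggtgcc
Pes1, chr11:3963965-3963994, plus strand: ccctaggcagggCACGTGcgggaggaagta
Wdr43, chr17:71616220-71616249, plus strand: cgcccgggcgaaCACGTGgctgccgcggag
Ltv1, chr10:13193092-13193121, minus strand: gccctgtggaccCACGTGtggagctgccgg
Utp20, chr10:88826765-88826789, minus strand: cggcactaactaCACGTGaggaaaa
Mybbp1a, chr11:72441355-72441376, plus strand: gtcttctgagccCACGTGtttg
The E-box of Nop2, an RNA methyltransferase of the large subunit, began 60 bases before the start. Those of Pes1, Wdr43, Ltv1, Utp20 and Mybbp1a began 3, 18, 29, 38 and 41 bases into the transcript. A match describes these letters only, and binding was not measured.

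The libraries held 65 to 785198 gene reads, with a median of 254001, and 6 cells under 84667 reads (the median divided by 3) were left out of ranges over cells. The 14 ILC2 markers took between 0.576 and 1.29% of the reads of a group, and they were not read equally often. Ly6a (Sca-1), Gata3, Rora, Il1rl1, Il2ra and Kit had reads in 120, 116, 114, 113, 113 and 110 of the 120 cells. Klrg1, Ptprc, Icos, Thy1 and Il7r had reads in 92, 70, 69, 53 and 46 cells, and Arg1, Areg and Il17rb in 22, 14 and 13. T cell markers took 0.0327 to 0.188%, with Trbc2 read in 98 cells, Cd3g in 26 and Cd4, Cd8a, Cd8b1 and Cd5 in 0. The T cell list was highest before stimulation, at 0.174% for the IL-13 and 0.188% for the IL-5 index. B cell, mast cell, myeloid, NK cell and stromal lists each stayed at or under 0.0326%. Whether these markers had a part in the results was not tested. Libraries were pooled by 5 or 6, and which cells shared a pool is not given. Each state but pre-stimulation had 2 title dates per index, pre-stimulation only the first. A state had 5 cells on the first date and, where it had a second, 6 on that date, the same sizes as the pools. If a pool held the cells of 1 state and date, pool and state cannot be told apart. The 2 indexes shared 0 title dates, so index and date cannot be told apart in any difference between them.

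Together the 38 genes took the smallest share of reads before stimulation and the largest in activated cells, for both indexes. For the IL-13 index they made up 0.366% (95% interval 0.354 to 0.378%) of gene reads before stimulation. The share was 0.571% at 30 min, 0.532% at 60 min and 0.842% at 90 min after onset, 1.19% (95% interval 1.18 to 1.20%) in activated and 0.63% in silent cells. In IL-5 index cells the share was 0.217% (95% interval 0.209 to 0.226%) before stimulation, 0.632, 0.987 and 0.742% at 30, 60 and 90 min, 1.16% (95% interval 1.14 to 1.17%) in activated and 0.732% in silent cells. Activated cells held 3.25 times the pre-stimulation share for the IL-13 index and 5.32 times for the IL-5 index. The reads of the set came mostly from a few genes. Nop10, Nhp2, Npm1 and Ncl supplied 50.5% of the 241656 reads of the set. Shares are relative to all gene reads of a cell, and amounts of RNA per cell were not computed because no spike-in entries were in the counts.

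The spread between cells was wide. In IL-13 index pre-stimulation cells the lowest, median and highest shares were 0.183, 0.296 and 0.697%, and in activated cells 0.649, 1.20 and 1.82%. Of the 11 activated cells, 10 lay above all 5 pre-stimulation cells. Among IL-5 index cells the values were 0.168, 0.229 and 0.315% before stimulation and 0.781, 1.19 and 1.55% in activated cells, and the 2 groups did not overlap. Silent cells spanned 0.266, 0.597 and 1.05% (IL-13 index) and 0.199, 0.696 and 1.28% (IL-5 index), so their lowest cells lay within the pre-stimulation range and their highest among activated cells. Among activated cells, 7 of 11 IL-13 index cells and 3 of 11 IL-5 index cells exceeded every silent cell. At 30 min the cells spanned 0.342, 0.56 and 0.963% and 0.209, 0.591 and 1.27%. The transition times did not form one order in the 2 indexes: at 60 min the IL-13 index cells spanned 0.171, 0.334 and 1.12% and the IL-5 index cells 0.209, 0.99 and 1.64%, and at 90 min 0.337, 1.03 and 1.15% and 0.244, 0.688 and 1.21%.

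**Figure D1:**
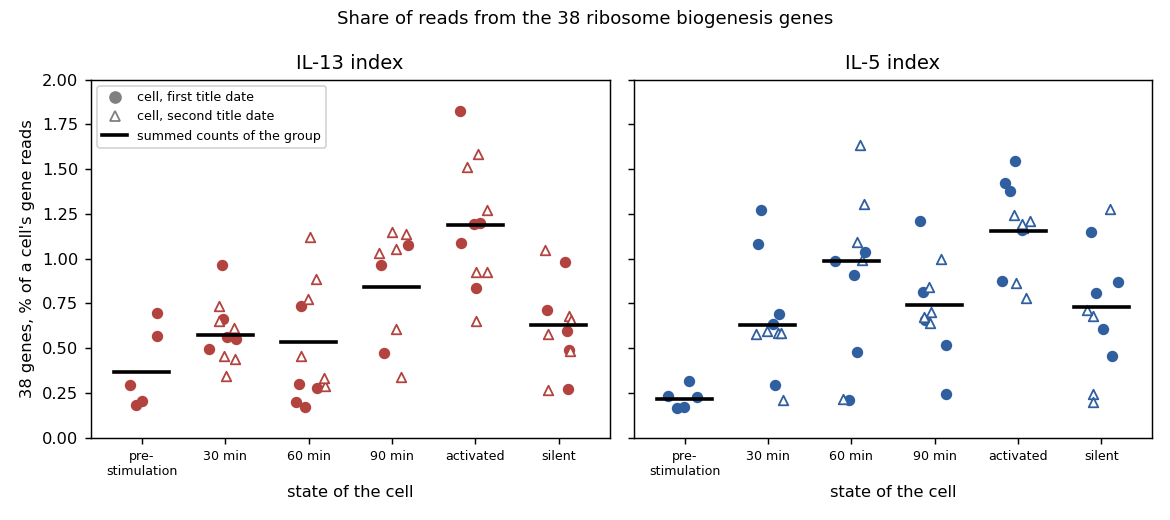
Share of a cell's gene reads in the 38 ribosome biogenesis genes (vertical axis, %) by state, in the IL-13 index (left) and the IL-5 index (right). Points are single cells, filled circles for the first and open triangles for the second title date, without the 6 cells under 84667 reads, and black bars are the share in the summed counts of the group. Activated cells reach 0.649% or more, whereas 8 of the 10 pre-stimulation cells lie at or under 0.315%.

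The title dates gave the same order of activated over silent cells. For the IL-13 index the share was 1.22% and 1.17% in activated cells of the first and second date, and 0.631% and 0.629% in silent cells. With IL-5 as index it was 1.26 and 1.08% against 0.778 and 0.68%. At 60 min the dates differed more, with 0.303 and 0.646% for the IL-13 index and 0.809 and 1.13% for the IL-5 index. At 30 min the first date was higher for both indexes, at 0.641 against 0.53% and 0.783 against 0.514%.

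The pre-stimulation cells of the 2 indexes, which were collected on different title dates, had different shares. The IL-13 index group held 0.366% and the IL-5 index group 0.217% of reads in the set, and of the members Nop10 made up much of this difference, with 1307 against 309 CPM. One IL-13 index cell (replicate 2) had a share of 0.697% and held 55.2% of the Nop10 reads of its group. Another (replicate 1) had 1.72% of its reads in a list of 38 proliferation genes, against a median of 0.0243% in its group, with a share of 0.206% in the ribosome biogenesis genes. Without replicate 2 the IL-13 index log2 ratio of activated over pre-stimulation shares was 2.01 instead of 1.70, and without replicate 1 it was 1.4998. In the summed counts the proliferation genes took 0.467 and 0.06% of reads before stimulation for the IL-13 and the IL-5 index. They took 0.0211 and 0.043% at 30 min, 0.0473 and 0.051% in activated and 0.026 and 0.0372% in silent cells. The part of the proliferation genes in the result was not tested.

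The first comparison asked how the genes stood 30 min after the onset of secretion relative to pre-stimulation cells. These are also called resting cells below, a name for the lack of added stimulus and not for a lack of proliferation. The log2 ratio of the share was 0.64 (95% interval 0.59 to 0.70) in the IL-13 index, and 25 of the 38 members were at least 2-fold higher and 4 at least 2-fold lower at 30 min. Among all genes averaging 50 CPM or more, 32.2% were at least 2-fold higher and 23.4% lower. The median log2 ratio was 2.04 over the 37 members with a ratio, against 0.05 over all genes at 50 CPM. A group with under 3 reads was set to 3 reads, so that its ratio is a bound in these medians, and a gene under 3 reads in both groups has no ratio. When IL-5 was the index, the log2 ratio of the set was 1.54 (95% interval 1.48 to 1.60), with 29 members higher and 0 lower by that measure, against 36.3% and 20.1% of all genes. The median was 2.53 for the members and 0.24 for all genes. The background takes genes at 50 CPM, and 12 of the 38 members lie under it. Of the 26 above it, 18 and 19 were at least 2-fold higher for the 2 indexes.

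Activated cells stood further from resting cells. The log2 ratio of the share of the set was 1.70 (95% interval 1.65 to 1.75) for the IL-13 index, with 31 of 38 members at least 2-fold higher and 1 lower, against 35.1% and 23.7% of all genes. It was 2.41 (95% interval 2.35 to 2.47) for the IL-5 index, with 32 members higher and 0 lower, against 36.4% and 24.6%. The median member differed by 2.97 and 3.31 on the log2 scale and the median of all genes by 0.28 and 0.23. Gar1 and Polr1a were the 2 members that were not at least 2-fold higher in either index. Silent cells, which had met the same stimulus without detected secretion, were also above resting cells. The log2 ratio was 0.78 (95% interval 0.73 to 0.84) with 25 members higher and 3 lower for the IL-13 index, against 34.2% and 18.1% of all genes. For IL-5 index cells it was 1.75 (95% interval 1.69 to 1.81) with 31 higher and 1 lower, against 35.5% and 21.3%. These 3 comparisons share the pre-stimulation cells of their index.

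Activated cells held a larger share of the set than silent cells. The log2 ratios were 0.92 (95% interval 0.89 to 0.94) and 0.66 (95% interval 0.64 to 0.68) for the IL-13 and IL-5 indexes. At least 2-fold higher were 20 members and lower 3 for the IL-13 index, beside 19.8% and 23.6% of all genes. For the IL-5 index 18 were higher and 3 lower, beside 14.8% and 18.6%. Of the 26 members at 50 CPM, 10 and 11 were higher, a smaller count than over all 38. Cells at 30 min lay under activated cells, with log2 ratios of the share of -1.06 (95% interval -1.08 to -1.03) and -0.87 (95% interval -0.89 to -0.85). In the IL-13 index 2 members were at least 2-fold higher and 17 lower at 30 min, beside 23% and 26.6% of all genes. In the IL-5 index these were 3 and 13, beside 21.9% and 16.7%. The 2 higher members of the IL-13 index were Nop14 and Dimt1, and the 3 of the IL-5 index were Polr1a, Ddx21 and Gar1. For Polr1a the log2 ratio was 3.71 with all cells and -0.59 without 1 cell at 30 min (replicate 6), and for Dimt1 2.79 and 0.62 without replicate 4 at 30 min. Without 1 activated cell of the IL-5 index (replicate 10) the count of higher members was 5, and without 1 IL-13 index cell at 30 min (replicate 4) it was 1.

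**Figure D2:**
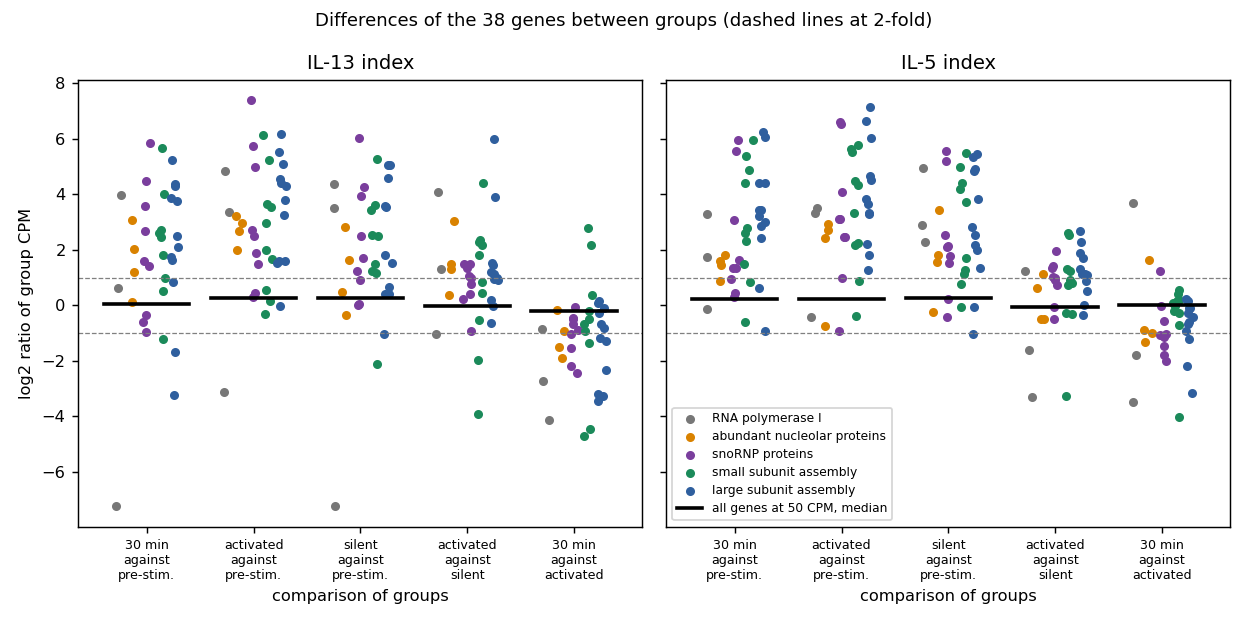
Log2 ratio of group CPM (vertical axis) for each member in 5 comparisons, in the IL-13 index (left) and the IL-5 index (right). Points are genes, coloured by role, black bars are the median of all genes averaging 50 CPM or more, and dashed lines mark 2-fold. Most members lie above the upper dashed line against pre-stimulation cells, with medians of 2.97 and 3.31 for activated cells, and most lie below 0 at 30 min against activated cells, with medians of -0.91 and -0.58.

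Single ratios rest on few cells. Of 261 ratios of at least 2-fold over the 38 members and 10 comparisons, 12 changed sign when 1 cell was left out. Of the 77 that could be computed on each title date, 10 had opposite signs on the 2 dates. Of all 377 ratios, 242 moved by over 1.5 times without the cell that mattered most to them. In pre-stimulation cells, 11 members had 0 reads for the IL-13 index and 18 for the IL-5 index, in 964383 and 1212183 gene reads, and 10 and 7 more were read in a single cell. In the activated groups, of 11 cells and 3193331 and 3732032 reads, 0 members had 0 reads, so depth and the number of cells differ with the state. Of the 26 members at 50 CPM, 4 and 9 had 0 reads in resting cells of the 2 indexes, where 10.3 and 15.1% of all 2658 genes at 50 CPM did. In activated cells 1.58 and 1.32% of these genes had 0 reads.

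Among the RNA polymerase I genes the levels were low and uneven, and none of the 3 had a mean of 50 CPM. Polr1a, the catalytic subunit, had 169 CPM before stimulation, 0, 16.3 and 2.40 CPM at 30, 60 and 90 min, 19.4 CPM in activated and 0 CPM in silent cells for the IL-13 index. It was read in 3 of 5 pre-stimulation cells, 1 of which (replicate 4) held 77.3% of the reads, and in 0 cells at 30 min. In IL-5 index cells it had 0 reads before stimulation and at most 54.1 CPM, at 90 min. Polr1b was at 31.9 and 65.0 CPM in activated and silent IL-13 index cells and at 24.9 and 76.3 CPM for the IL-5 index, from 0 reads before stimulation. Mybbp1a was higher in activated than in pre-stimulation cells of both indexes, at 88.3 against 0 CPM and 85.5 against 7.42 CPM, the latter 0 CPM without replicate 2. It was read in 9 of 11 and 9 of 11 activated cells.

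Of the 4 abundant nucleolar proteins, Ncl and Npm1 gave most of the reads. Ncl, which binds ribosomal RNA precursors, had 216 CPM before stimulation, 887, 651 and 1025 CPM at 30, 60 and 90 min, 1691 CPM in activated and 679 CPM in silent cells for the IL-13 index. The lowest, median and highest cells were at 0, 204 and 637 CPM before stimulation and 417, 1519 and 4101 CPM in activated cells. The activated level was 7.84 times the resting one, a log2 ratio of 2.97 (95% interval 2.77 to 3.18), and the 2 groups overlapped. Without 1 resting cell (replicate 3) the log2 ratio was 3.71. Among IL-5 index cells Ncl had 196 CPM before stimulation, 534, 987 and 876 CPM at 30, 60 and 90 min, 1051 CPM in activated and 681 CPM in silent cells, and the cells spanned 54.6, 238 and 303 CPM before stimulation and 359, 1050.1 and 1999 CPM in activated cells, with no overlap.

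Npm1, a histone and ribosome chaperone of the nucleolus, had 391 CPM before stimulation, 424, 349.8 and 709.7 CPM at 30, 60 and 90 min, 1562 CPM in activated and 549 CPM in silent cells for the IL-13 index. At 30 min it stood at 1.09 times the resting level, with cells at 54.6, 199 and 1209 CPM before and 109, 285 and 1068 CPM at 30 min. Without resting replicate 2 this ratio was 1.95. With IL-5 as index it had 285 CPM before stimulation, 998, 1066 and 982 CPM at 30, 60 and 90 min, 1862 CPM in activated and 851 CPM in silent cells. Here the cells at 30 min spanned 155, 744 and 2447 CPM against 155, 267 and 626 CPM before stimulation, and the log2 ratio was 1.81 (95% interval 1.65 to 1.97). Activated cells stood above silent cells for both indexes, by 1.51 and 1.13 on the log2 scale, with overlap of the cells. Ddx21, a helicase of ribosomal RNA transcription and processing, was lower before stimulation than in activated cells in the IL-13 index and, with all cells, higher in the IL-5 index. It had 20.7 CPM before stimulation, 173, 267 and 326 CPM at 30, 60 and 90 min, 193 CPM in activated and 148 CPM in silent cells for the IL-13 index. When IL-5 was the index, it had 172 CPM before stimulation, 319, 184 and 215 CPM at 30, 60 and 90 min, 102 CPM in activated and 144 CPM in silent cells, and activated cells stood 3.14 times lower than at 30 min. The log2 ratio of activated to resting cells was -0.76 for that index and 0.21 without resting replicate 3, so its sign rested on 1 cell. With all cells it was 3.22 for the IL-13 index, and 5.53 without resting replicate 1. Npm3 reached at most 40.1 CPM, in IL-13 index activated cells, where 9 of 11 cells had a read.

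**Figure D3:**
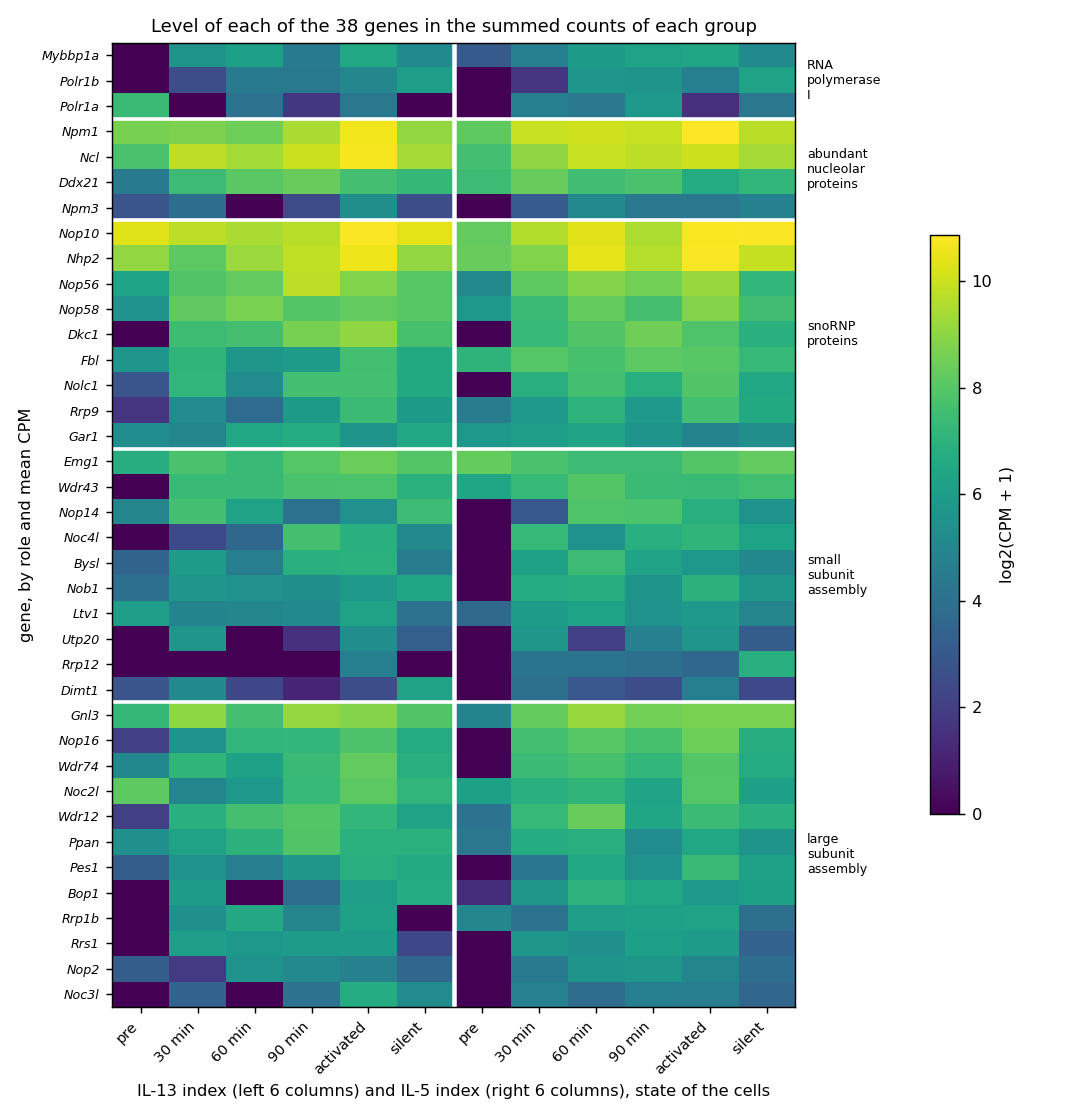
Level of each of the 38 genes, as log2(CPM + 1) of the summed counts, in the 12 groups of index and state, with genes ordered by role and mean CPM. Dark cells mark 0 reads, which 11 members had in IL-13 index and 18 in IL-5 index pre-stimulation cells, and 0 members in activated cells.

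Of the 9 snoRNP proteins, 7 were at least 2-fold higher in activated than in pre-stimulation cells for the IL-13 index and 7 for the IL-5 index, and 0 were lower, beside 35.1 and 36.4% of all genes higher. Dkc1, the pseudouridine synthase of box H/ACA snoRNPs, had 0 reads in all 10 pre-stimulation cells. It had 180.1, 199 and 399 CPM at 30, 60 and 90 min, 526 CPM in activated and 206 CPM in silent cells for the IL-13 index. For IL-5 index cells it had 155, 241 and 367 CPM at 30, 60 and 90 min, 229.9 CPM in activated and 116 CPM in silent cells. Against 3 reads over the resting group, activated cells were at least 169-fold (IL-13) and at least 92.9-fold (IL-5) higher. All 22 activated cells had a Dkc1 read, the lowest at 3.47 CPM for the IL-13 and 55.2 CPM for the IL-5 index. Nolc1 had 6.22 CPM in resting and 198 CPM in activated IL-13 index cells. For the IL-5 index it had 0 reads in resting cells and 241 CPM in activated cells, at least 97.2-fold higher. It too was read in all 22 activated cells.

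Nop56, a core box C/D protein, had 78.8 CPM before stimulation, 241, 304 and 885 CPM at 30, 60 and 90 min, 449.7 CPM in activated and 261 CPM in silent cells for the IL-13 index. The cells spanned 0, 60.9 and 167 CPM before stimulation and 168, 464 and 815 CPM in activated cells, a log2 ratio of 2.51 (95% interval 2.18 to 2.86) with no overlap. In IL-5 index cells it had 33.8 CPM before stimulation, 285, 464 and 368 CPM at 30, 60 and 90 min, 578 CPM in activated and 147 CPM in silent cells. Every resting read lay in 1 cell, and the activated cells spanned 253, 423 and 1445 CPM. The log2 ratio of activated to silent cells was 1.97 (95% interval 1.82 to 2.12) for the IL-5 index and 0.79 (95% interval 0.65 to 0.92) for the IL-13 index, where it was 1.72 without silent replicate 9. Its partner Nop58 had 46.7 CPM before stimulation, 297, 413 and 249 CPM at 30, 60 and 90 min, 308 CPM in activated and 261 CPM in silent cells for the IL-13 index, with its highest level at 60 min. Among IL-5 index cells Nop58 had 53.6 CPM before stimulation, 168, 312 and 199 CPM at 30, 60 and 90 min, 465 CPM in activated and 183 CPM in silent cells, and all resting reads were in 1 cell. Fbl, the methyltransferase of box C/D snoRNPs, was at 51.8 and 190.4 CPM in resting and activated IL-13 index cells and at 133 and 262 CPM for the IL-5 index. Rrp9, a snoRNP protein of small subunit processing, was at 169 and 195 CPM in activated cells, against 2.07 and 22.3 CPM before stimulation.

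Nop10 and Nhp2, the small box H/ACA proteins, were lower at 30 min than before stimulation in the summed counts of the IL-13 index and higher in the IL-5 index. For Nop10 this direction in the IL-13 index rested on 1 resting cell. Nop10 had 1307 CPM before stimulation, 869, 716 and 836 CPM at 30, 60 and 90 min, 1793 CPM in activated and 1358 CPM in silent cells for the IL-13 index. The resting cells spanned 273, 537 and 4118 CPM, with replicate 2 far above the others. Without it the resting level was 710.2 CPM and the log2 ratio of 30 min to resting cells 0.29 in place of -0.59. The activated cells spanned 487, 1697 and 3547 CPM. With IL-5 as index it had 309 CPM before stimulation, 782, 1329 and 740.2 CPM at 30, 60 and 90 min, 1725 CPM in activated and 1801 CPM in silent cells. Here the resting cells spanned 7.50, 327 and 447 CPM and the activated cells 712, 1433 and 2999 CPM, without overlap, and the log2 ratio was 2.48 (95% interval 2.33 to 2.64). Silent cells were at 8.59, 1643 and 3895 CPM and not below activated cells in the summed counts. Nhp2 had 552 CPM before stimulation, 282, 592 and 915 CPM at 30, 60 and 90 min, 1539.8 CPM in activated and 553 CPM in silent cells for the IL-13 index, with its lowest level at 30 min, where the cells spanned 0, 228 and 1236 CPM against 0, 664 and 1068 CPM before stimulation. When IL-5 was the index, it had 325 CPM before stimulation, 447, 1398 and 804 CPM at 30, 60 and 90 min, 1775 CPM in activated and 947 CPM in silent cells, and its log2 ratio of 30 min to resting cells was 0.46, or 1.61 without resting replicate 5. Activated cells stood 5.45 and 3.97 times above cells at 30 min for the 2 indexes, with ranges of 4.34, 1574 and 3131 and 631, 1668 and 3259 CPM. Gar1 did not exceed 104 CPM in any group, and for the IL-5 index it was lower in activated (28.1 CPM) than in resting cells (53.6 CPM), where 2 of 5 cells had a read. Without 1 of these (replicate 4) the resting level was 1.09 CPM and the direction turned.

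**Figure D4:**
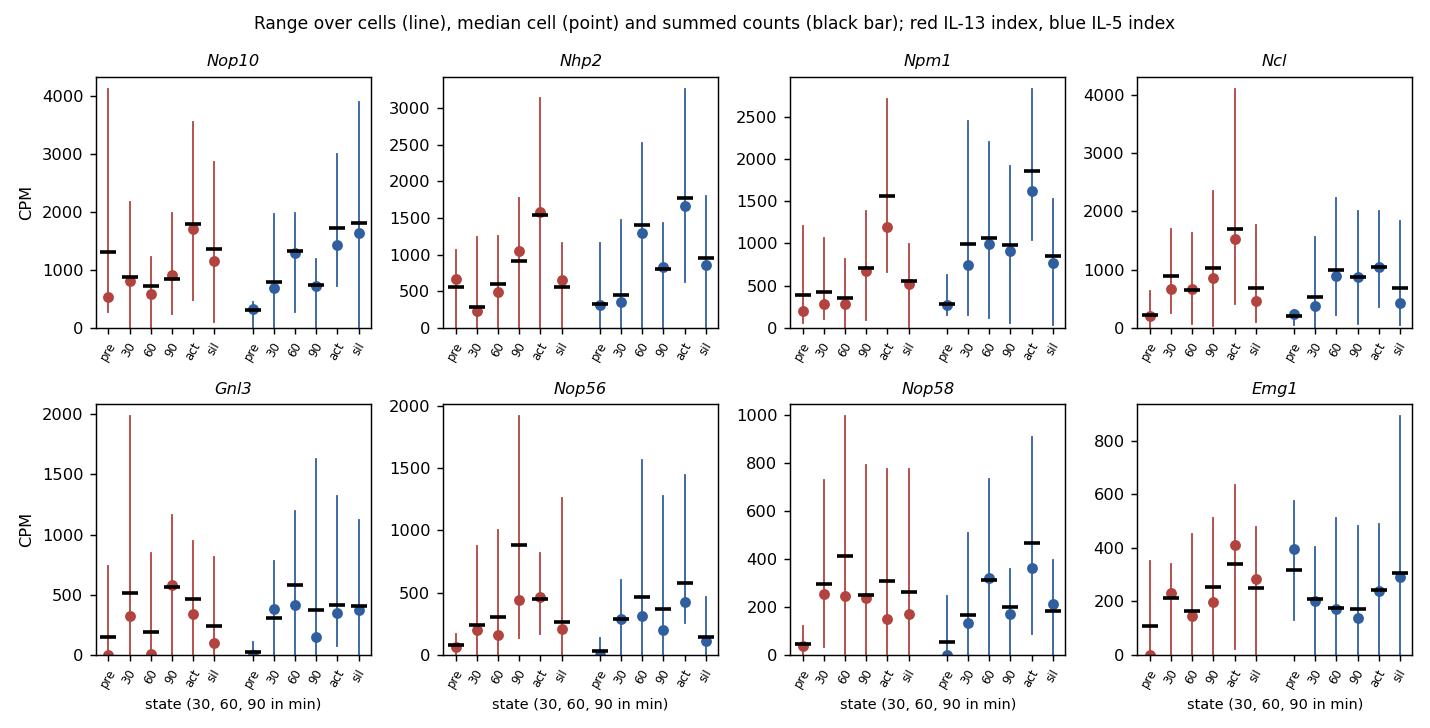
CPM (vertical axis, linear) of the 8 members with the highest mean CPM in the 12 groups, IL-13 index in red and IL-5 index in blue. Lines run from the lowest to the highest cell, points are the median cell and black bars the summed counts, without the 6 cells under 84667 reads in the lines and points. The wide lines show the spread between cells, as for Nop10 in IL-13 index pre-stimulation cells with a median of 537 and a highest cell of 4118 CPM.

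Of the 10 small subunit assembly genes, 7 and 8 were at least 2-fold higher in activated than in resting cells for the IL-13 and the IL-5 index, beside 35.1 and 36.4% of all genes. Of the 6 at 50 CPM, the limit of that background, 5 and 4 were higher. Emg1, a methyltransferase of small subunit RNA, was higher in activated than in resting cells in the IL-13 index and lower in the IL-5 index. It had 107 CPM before stimulation, 213, 166 and 255 CPM at 30, 60 and 90 min, 342 CPM in activated and 250.5 CPM in silent cells for the IL-13 index, with cells at 0, 0 and 352 CPM before stimulation and 21.7, 411 and 634 CPM in activated cells. The log2 ratio of activated to resting cells was 1.68, and 2.60 without resting replicate 3. For IL-5 index cells it had 318 CPM before stimulation, 211, 174 and 172 CPM at 30, 60 and 90 min, 245 CPM in activated and 306 CPM in silent cells. The resting cells there spanned 132, 398 and 577 CPM and the activated cells 0, 238 and 491 CPM, with wide overlap. Wdr43, a factor of the early small subunit precursor, had 0 reads in IL-13 index resting cells and 157 CPM at 30 min, at least 50.4-fold higher when the resting group is set to 3 reads. For the IL-5 index it was at 85.8 CPM before stimulation and 155 CPM at 30 min.

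Noc4l, which works with Nop14 in small subunit assembly, had 0 reads in resting cells of both indexes. It was at 4.48 CPM at 30 min and 118 CPM in activated IL-13 index cells, 26.4 times apart. Without 1 cell at 30 min (replicate 2) its level there was 0 CPM. In the IL-5 index it was at 156 CPM already at 30 min, read in 8 of 11 cells, and at 136 CPM in activated cells. Nop14 was higher at 30 min than in activated cells in the IL-13 index and lower in the IL-5 index. It had 30.1 CPM before stimulation, 197, 75.4 and 16.2 CPM at 30, 60 and 90 min, 43.8 CPM in activated and 172 CPM in silent cells for the IL-13 index. In IL-5 index cells it had 0 CPM before stimulation, 7.04, 235 and 222 CPM at 30, 60 and 90 min, 113 CPM in activated and 45.3 CPM in silent cells. A single cell held 49.1% of the IL-13 index reads at 30 min, and 1 cell held all of those of the IL-5 index. Without activated replicate 10 the log2 ratio of 30 min to activated cells was 3.70 in the IL-13 index, in place of 2.17. Bysl was 5.12 times higher in activated (119.9 CPM) than in silent cells (23.4 CPM) of the IL-13 index, with reads in 10 of 11 and 2 of 11 cells, and 9.68 times without silent replicate 4. Among IL-5 index cells the levels were 55.2 and 32.9 CPM. Rrp12 was read in 4 of 11 IL-13 index activated cells and in 0 cells of the other IL-13 index groups, where 0 reads allow a level of up to between 0.98 and 3.11 CPM. It was highest in silent IL-5 index cells, at 112 CPM. Utp20, Dimt1, Ltv1 and Nob1 lay between 0 and 125 CPM in all groups.

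Of the 12 large subunit assembly genes, 11 (IL-13) and 12 (IL-5) were at least 2-fold higher in activated than in resting cells, beside 35.1 and 36.4% of all genes. Of the 8 at 50 CPM these were 7 and 8. Nop16, a factor of early large subunit precursors, had 3.11 CPM before stimulation, 45.6, 142 and 147 CPM at 30, 60 and 90 min, 228 CPM in activated and 103 CPM in silent cells for the IL-13 index. With IL-5 as index it had 0 CPM before stimulation, 189, 262 and 206 CPM at 30, 60 and 90 min, 355 CPM in activated and 109 CPM in silent cells. With 0 reads in IL-5 index resting cells, activated cells were at least 144-fold higher than a resting level of 3 reads, and the lowest of them was at 118 CPM. Wdr74, which takes part in large subunit maturation, had 0 reads before stimulation in the IL-5 index, 251 CPM in activated and 101 CPM in silent cells. The levels for the IL-13 index were 32.1, 306 and 112 CPM.

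Bop1, Pes1 and Wdr12 form one complex of large subunit assembly, and in the IL-13 index each was highest in another state. Wdr12 was already at 117 and 155 CPM at 30 min, from 3.11 and 16.5 CPM before stimulation, and was highest at 90 min for the IL-13 (249 CPM) and at 60 min for the IL-5 index (319.9 CPM). Pes1 was at 46.7 and 18.0 CPM at 30 min and highest in activated cells, at 114 and 160.2 CPM. Bop1 was highest in silent IL-13 index cells (105 CPM, read in 3 of 11 cells) and at 60 min for the IL-5 index (128 CPM).

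Gnl3, known as nucleostemin, a nucleolar GTPase, had 151 CPM before stimulation, 512, 195 and 564 CPM at 30, 60 and 90 min, 464 CPM in activated and 241 CPM in silent cells for the IL-13 index. It was read in all 11 cells at 30 min, at 2.77, 325 and 1982 CPM, against 0, 0 and 741 CPM before stimulation, where 1 cell held 85.6% of the reads. When IL-5 was the index, it had 28.9 CPM before stimulation, 310.0, 584 and 377 CPM at 30, 60 and 90 min, 412 CPM in activated and 409 CPM in silent cells. Activated cells of that index spanned 73.2, 351 and 1318 CPM. Noc2l, a factor in the export of large subunit precursors, had the largest difference in the opposite direction among members at 50 CPM or more. For the IL-13 index it was 9.26 times lower at 30 min (31.0 CPM) than before stimulation (287 CPM), with 63.5% of the resting reads in 1 cell (replicate 4), and at 282 CPM in activated cells. Without that cell the resting level was 127 CPM and the difference 4.09 times. For IL-5 index cells it had 71.8 CPM before stimulation, 111, 138 and 80.9 CPM at 30, 60 and 90 min, 256 CPM in activated and 69.8 CPM in silent cells. Ppan was at 42.5 and 122 CPM in resting and activated IL-13 index cells and at 19.0 and 87.6 CPM for the IL-5 index. Nop2, Noc3l, Rrs1 and Rrp1b averaged under 50 CPM. Rrs1 was at 62.0 CPM in activated and 4.16 CPM in silent IL-13 index cells, and at 63.0 and 9.79 CPM for the IL-5 index, where 2 of 11 silent cells had a read.

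Exons of 21 of the 38 members overlap exons of another gene in GRCm38, 5 on the same strand and 18 on the opposite strand. Small nucleolar RNA genes lie within Ncl, Nop56 and Gnl3, Idh3b lies opposite Nop56 and Pbrm1 opposite Gnl3. The strand setting of the counting is not given, so reads of such pairs may not be told apart.

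More of the 38 genes were read per cell after activation. In cells thinned to 100000 gene reads, the lowest, median and highest numbers of members with a read were 8, 10 and 18 before stimulation and 13, 16 and 24 at 30 min for the IL-13 index. They were 15, 28 and 33 in activated and 8, 16 and 26 in silent cells. For the IL-5 index the numbers were 7, 10 and 12 before stimulation, 14, 19 and 31 at 30 min, 22, 28 and 34 in activated and 11, 20.5 and 30 in silent cells. The IL-5 index activated cells all exceeded the resting cells, and those of the IL-13 index overlapped them. Without thinning the medians were 11, 19, 28 and 18 for the IL-13 index and 10, 20.5, 29 and 22 for the IL-5 index. Genes of all kinds were also read in greater number. In thinned cells the medians over all genes were 1898, 2218, 2926 and 2349 in the same order for the IL-13 index and 2250, 2447, 2998 and 2610.5 for the IL-5 index, and resting and activated cells overlapped in both. The part of this in the members' counts was not tested. Thinning left out 7 cells under 100000 reads.

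A list of 90 other ribosome biogenesis genes was also lower before stimulation than in the stimulated states. It took 0.32% of reads before stimulation, 0.749% at 30 min, 0.984% in activated and 0.71% in silent IL-13 index cells. In IL-5 index cells the shares were 0.325, 0.803, 0.986 and 0.661%. Of its genes with a ratio, 56 of 84 were at least 2-fold higher and 6 lower at 30 min than before stimulation for the IL-13 index. Among IL-5 index cells these were 58 of 86 and 11. In activated cells the counts were 60 higher and 2 lower of 88, and 64 and 7 of 88. The shares over all genes are those given above for these comparisons, 32.2 and 36.3% higher at 30 min and 35.1 and 36.4% higher in activated cells. They take genes at 50 CPM, which 48 of the 90 genes reach. Of these 48, at 30 min 32 were higher and 3 lower for the IL-13 index, and 34 and 3 for the IL-5 index. In activated cells these counts were 34 and 0, and 34 and 3. The largest differences in activated cells were in Mak16, Rrp15 and Ftsj3 for the IL-13 index and in Ebna1bp2, Rpf2 and Rsl24d1 for the IL-5 index, all with 0 reads in resting cells.

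The machinery of RNA polymerases I and III, a list of 32 genes, differed less in its summed share. Its share was 0.147, 0.134, 0.165 and 0.195% before stimulation, at 30 min, in activated and in silent IL-13 index cells, and 0.138, 0.17, 0.17 and 0.155% for the IL-5 index. In activated against resting cells 12 genes were at least 2-fold higher and 6 lower of 26 for the IL-13 index, and 18 and 3 of 27 for the IL-5 index. Over all genes 35.1% were higher and 23.7% lower, and 36.4% and 24.6%. Of the 8 genes at 50 CPM, 4 were higher and 2 lower in each index, near the shares of all genes. Twistnb and Polr1d, subunits of RNA polymerase I, were among the largest positive differences of the IL-13 index, and Gtf3c6, a subunit of a polymerase III transcription factor, was the largest negative one.

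The mRNAs of the cytosolic ribosomal proteins, the building blocks that biogenesis assembles, had another order of states than the 38 genes. The 79 genes took 20.4% of reads before stimulation, 15.6, 16.1 and 16.2% at 30, 60 and 90 min, 18.9% in activated and 17.3% in silent IL-13 index cells. With IL-5 as index the shares were 21.4, 15.3, 15.7, 14.4, 16.6 and 19.0%. At least 2-fold higher in activated than in resting cells were 1 and 0 of the 79, and lower 2 and 7, against 35.1 and 36.4% higher and 23.7 and 24.6% lower of all genes. The median log2 ratios were -0.01 and -0.23, and -0.42 and -0.47 at 30 min. At 30 min the cells spanned 11.3, 15.8 and 18.3% and 9.89, 16.8 and 17.8%, against 9.96, 22.8 and 27.9% and 16.6, 21.4 and 27.8% before stimulation, so the cells overlapped for both indexes. The 38 genes stood at their lowest share, and the ribosomal protein mRNAs at their highest, before stimulation. Over the 10 stimulated groups of 9 to 11 cells, Pearson r between the 2 shares ran from 0.13 to 0.83 and Spearman rho from -0.02 (90 min, IL-13 index) to 0.83, as a description of cells with the same total.

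**Figure D5:**
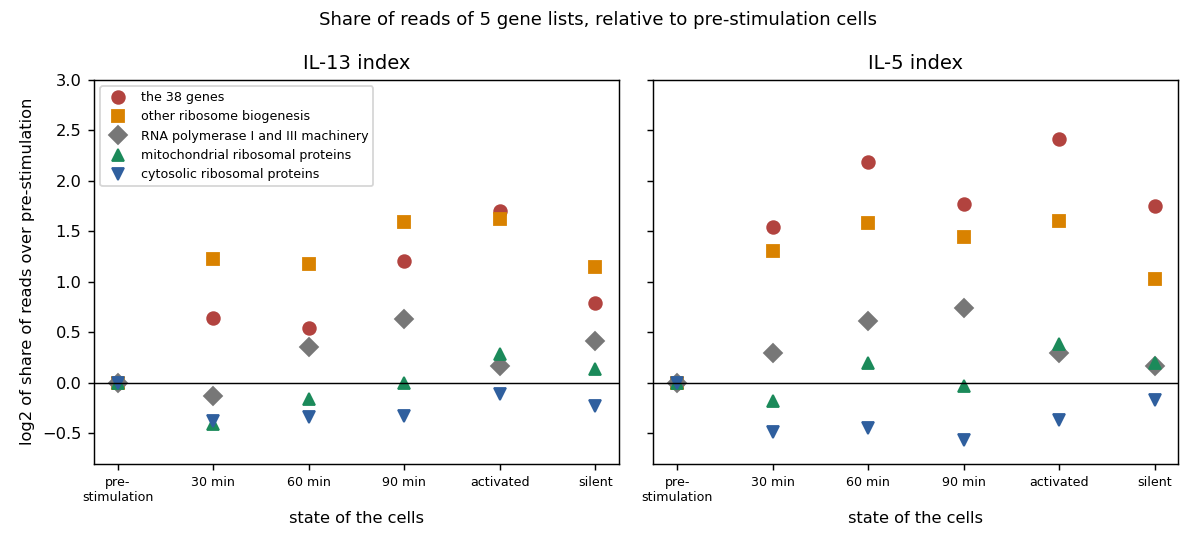
Share of reads of 5 gene lists in the summed counts of each state, as log2 of the share over that in pre-stimulation cells of the same index (IL-13 left, IL-5 right). The 38 genes and the 90 other ribosome biogenesis genes lie above 0 in each stimulated state, the cytosolic ribosomal proteins below it, and activated cells reach 1.70 and 2.41 for the 38 genes.

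Genes outside the set averaging 50 CPM or more were ranked by how like its share their CPM was across the 12 groups. The measure was Pearson r on the log2(CPM + 1) scale, as a description of groups whose animals are not known. The highest were Phgdh (0.98), the serine synthesis enzyme, Rps27l (0.97) and Ran (0.94), the GTPase of nuclear transport. H13 (0.94), the proteasome subunits Psma5 (0.94) and Psma7 (0.93), Ebna1bp2 (0.93), Mrto4 (0.93), the chaperonin subunit Cct6a (0.92) and Tomm40 (0.92) of the mitochondrial import pore followed. Ebna1bp2 and Mrto4 are themselves ribosome assembly factors. Ran was at 621 and 310.2 CPM before stimulation and at 1751 and 1897 CPM in activated cells. For Phgdh the levels were 29.0 and 14.8 CPM, and 296 and 293 CPM.

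Within the set, the 26 members at 50 CPM had correlations of -0.00389 to 0.93 with the summed level of the set, which includes the member, with a median of 0.80, against a median of 0.15 for all 2658 genes at 50 CPM with the same sum. Nolc1 (0.93), Pes1 (0.93), Ncl (0.93) and Nop16 (0.92) had the highest values. Gar1 (-0.00389), Emg1 (0.20), Ddx21 (0.28) and Noc2l (0.37) had the lowest.

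Among the cells of 1 group, the share of the 38 genes was set against that of the 90 other ribosome biogenesis genes, as a description. Pearson r was 0.77 over 11 IL-13 index cells at 30 min, 0.86 over 11 at 60 min, 0.50 over 9 at 90 min, 0.46 over 11 activated and 0.41 over 11 silent cells. When IL-5 was the index, it was 0.75 and 0.87 over 10 cells each at 30 and 60 min, 0.82 over 10 at 90 min, 0.60 over 11 activated and 0.90 over 10 silent cells. With the share of 11 cytokine genes, among them Il13 and Il5, r was -0.23 and -0.36 in activated cells of the 2 indexes. In silent cells it was 0.63 and -0.37, at 30 min 0.20 and 0.50, at 60 min -0.30 and -0.14 and at 90 min 0.03 and -0.19, so that the sign differed between groups. The 2 shares of a cell have the same total. Cytokine genes took 6.91 and 8.20% of reads in activated cells, and enter the total of the other shares. Without cytokine and mitochondrially encoded genes in the total, the log2 ratios of activated to resting cells were 1.80 and 2.52.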

How the data were processed

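Each deposited file holds raw read counts per gene of 1 cell, made by the authors, per the paper's methods, from read 1 with TopHat (alignment to GRCm38) and HTSeq (counting). For tools and builds, the submitters' processing notes list TopHat2, mm10 and GRCh38, the build the study used for human cells. The strand setting and annotation release are not given in the sources used here. Libraries were made with a 3' kit, without molecular identifiers, in pools of 5 or 6 cells, after removal of low-yield samples. Each file has 46078 identifiers and 5 HTSeq summary entries, which were left out (62.0% of alignments were in genes and 28.7% were not unique), and 0 ERCC entries.

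Here, the counts of all cells in a group were added and divided by their total to give reads per 1000000 gene reads (Python 3.11.15, pandas 2.3.3, numpy 2.4.6, scipy 1.17.1). Symbols and overlaps came from GENCODE annotation of GRCm38, by identifier. Log2 ratios set a group under 3 reads to 3. Intervals are exact 95% Poisson (CPM) or binomial (shares and ratios) and cover the counting error of reads only. The ratio script was tested on simulated counts. With neither animal nor culture known for a cell, no p-value was computed. Values in every group were given for the 8 members with the highest mean CPM, and per comparison for up to 3 of the largest differences in each direction among members at 50 CPM, with role members named beside them. The members and lists were chosen with earlier results of these data known. Alternatives were edgeR 4.0.16 and DESeq2 1.42.0 scaling, other limits, single dates and leaving out cells. No alternative was added later.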

Additional observations from a re-analysis of the deposited data

Results flagged for a closer look

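In the 2 pre-stimulation groups of 5 cells each, the only groups of a size at which the check is made, 36 sets of values were checked for a cell far from the others by the ratio of its gap to the range, against a critical value of 0.71 for 5 cells, and 7 were marked. For values that are 0 in all cells but 1, the ratio is 1 whatever the last value. This held for the RNA polymerase I genes, Nop56 and Nop58 in the IL-5 index. No chance rate can therefore be set beside the 7 marks. For the IL-13 index, replicate 1 had 1.72% of its reads in proliferation genes, against a median of 0.0243%. Replicate 4 had 0.186% in large subunit assembly genes, against a median of 0.0329%, and 741 CPM of Gnl3, against a median of 0. For IL-5 index cells, replicate 2 had 0.00294% in RNA polymerase I genes, 110.9 CPM of Gnl3 and 134 CPM of Nop56, and replicate 3 had 245 CPM of Nop58, each against a median of 0.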

How the results depend on the processing

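Values are given in the order 30 min, activated and silent against pre-stimulation, activated against silent and 30 min against activated. The log2 ratio of the share of the 38 genes kept its direction under each alternative. It was 0.59, 1.60, 0.66, 0.94 and -1.01 (IL-13) and 1.41, 2.39, 1.60, 0.78 and -0.98 (IL-5) when CPM was averaged over cells, 0.86, 1.94, 0.84, 1.10 and -1.08 (IL-13) and 1.90, 2.88, 2.13, 0.75 and -0.98 (IL-5) with TMM factors and 0.75, 1.63, 0.66, 0.97 and -0.87 (IL-13) and 1.58, 2.49, 1.73, 0.76 and -0.91 (IL-5) with DESeq2 size factors. It was 0.66, 1.80, 0.80, 1.00 and -1.14 (IL-13) and 1.57, 2.52, 1.76, 0.77 and -0.96 (IL-5) without mitochondrially encoded and cytokine genes in the total, 1.17, 2.12, 1.17, 0.96 and -0.95 (IL-13) and 1.52, 2.33, 1.56, 0.77 and -0.81 (IL-5) without the 2 members with the most reads, and 0.81, 1.74, 0.79, 0.95 and -0.93 (IL-13) and 1.85, 2.54, 1.84, 0.70 and -0.69 (IL-5) on the first title date alone. On the second date alone, which has no pre-stimulation cells, the last 2 values were 0.89 and -1.14 (IL-13) and 0.66 and -1.07 (IL-5). With the pre-stimulation cells of both indexes joined, the first 3 were 1.01, 2.07 and 1.15 (IL-13) and 1.16, 2.03 and 1.37 (IL-5). Leaving out 1 cell gave 0.44 to 0.95, 1.4998 to 2.01, 0.58 to 1.09, 0.84 to 1.04 and -1.14 to -0.98 (IL-13) and 1.39 to 1.68, 2.31 to 2.56, 1.63 to 1.90, 0.58 to 0.78 and -1.02 to -0.76 (IL-5). TMM factors moved the median of all genes by up to 0.47 on the log2 scale. They turned its sign for activated against silent cells of both indexes and for 30 min against activated cells of the IL-5 index. All 10 directions of the share of the 38 genes stayed as they were.

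The number of members at least 2-fold higher moved by over 1.5 times in a few cases. With a 4-fold limit, activated against silent cells gave 8 (IL-13) and 4 (IL-5) in place of 20 and 18, and 30 min against activated gave 1 (IL-5) in place of 3. With members at 50 CPM alone, the counts were 10 and 11 for activated against silent, 1 for IL-13 30 min against activated, and 19 and 21 for IL-5 30 min and activated against pre-stimulation, since fewer genes enter. Single dates gave 5 (IL-13, first) and 5 (IL-5, second) for 30 min against activated. Leaving out 1 cell gave 23 to 26, 30 to 33, 22 to 26, 19 to 25 and 1 to 2 (IL-13) and 27 to 32, 31 to 33, 27 to 32, 14 to 20 and 2 to 5 (IL-5). The other causes were not tested. Depth limits the resting groups, with 964383 and 1212183 reads over 5 cells each, where 3 reads correspond to 3.11 and 2.47 CPM. No paired analysis was possible because the values come from no test and replicate numbers, given in accession order, pair no cells across states. The values on single title dates are those matched by date. The median log2 ratio of the members ran from -0.91 to 3.31 over the 10 comparisons. It was labelled as moved in 6 of them on the first title date alone and in 4 with TMM factors. On the second date alone it was labelled as moved in 3 and as the same in 1.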

Other observations

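The mitochondrial ribosomal proteins, a list of 78 nuclear genes for the ribosome of the mitochondrion, had their lowest share of reads at 30 min and their highest in activated cells for both indexes. The share was 1.15% before stimulation, 0.869% at 30 min, 1.40% in activated and 1.27% in silent IL-13 index cells, and 1.07, 0.942, 1.39 and 1.23% for the IL-5 index. At 30 min against activated cells, 32 genes of 77 were at least 2-fold lower and 6 higher for the IL-13 index, and 25 and 6 of 78 for the IL-5 index. Over all genes averaging 50 CPM or more, 26.6% were lower and 23% higher, and 16.7% and 21.9%. The cells overlapped, spanning 0.521, 0.851 and 1.18% at 30 min and 0.841, 1.34 and 1.72% in activated IL-13 index cells, and 0.534, 1.00 and 1.24% and 1.14, 1.39 and 1.69% for the IL-5 index.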
